A study of Chlamydomonas reinhardtii with 2 samples.

Results

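The Calvin-Benson cycle enzymes of Chlamydomonas reinhardtii, a unicellular green alga, were followed here as transcripts with and without phosphate. They were chosen by gene symbol: 10 symbols were sought among the 17147 loci of the deposited expression table, and 9 had a row. The symbol RBCS2 had none; the locus beside RBCS1 carries the symbol RBCS2A, and its values are given apart from the 9. All 9 passed the filter of a mean of at least 1 RPKM (reads scaled to transcript length and to library depth) over both libraries.

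Both libraries came from the wild-type strain CC-1690, also called 21gr, shaken at 200 rpm and 25 °C under constant light (70 µmol m-2 s-1) in an acetate medium. The replete culture received 1.1 mM phosphate and the deprived culture 0 mM, and cells of each were collected after 24 h. The strain carries no engineered allele in the labels, and acetate was supplied in both media, so carbon was available to either culture besides CO2. Each condition had 1 library, so no value has a replicate error, no test was possible, and every difference below is between these 2 libraries. RPKM is scaled to library depth, so the values are relative within each library and do not give the amount of RNA per cell.

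The Calvin-Benson cycle fixes CO2 in the chloroplast stroma. Rubisco joins CO2 to ribulose bisphosphate, ATP and NADPH from the light reactions then reduce the product to triose phosphate, and a set of isomerases, transferases and phosphatases rebuilds the acceptor. Phosphate enters this exchange directly, because triose phosphate leaves the plastid in return for inorganic phosphate. Several of the enzymes are switched on in light by thioredoxins.

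Of the 9 transcripts, 8 were lower and 1 was higher without phosphate, and the differences were small. The median log2 fold (log2 of deprived over replete RPKM after adding 1 RPKM to each) was -0.28, with a range from -0.97 for RPI1 to 0.04 for FBP1. Over all 13855 genes past the filter the median was 0.14, 38.0% lay below 0 and 62.0% above. The members were abundant, however, and among the 767 genes with a mean of at least 100 RPKM the median was -0.07, 55.9% lay below 0 and 44.1% above. All 9 members had folds below the median of all genes, and 7 of them below that of the abundant genes, PRK1 and FBP1 lying above it. After quantile normalization, 6 of the 9 were below 0. The median of all genes was then -0.03 and that of the abundant genes -0.007, so the shares given above do not apply to that count.

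At least 1.5-fold lower were 3 of 9 members (RPI1, RPE1 and GAP3), against 6.66% of all genes past the filter and 17.9% of those with a mean of at least 100 RPKM. At least 2-fold lower were 0 of 9, against 1.64% and 7.43%. None was at least 1.5-fold higher, against 18.1% and 13.3%. RPI1 passed 2-fold when both libraries were given the same median (log2 fold -1.18) or scaled by a trimmed mean (-1.15). RCA1 then joined the 3 at 1.5-fold, while the share of all genes at least 1.5-fold lower rose to 11.2% and 10.4%. The median of genes with a mean of at least 100 RPKM fell to -0.28 and -0.26 under these scalings. Their share at 1.5-fold, and any share of genes at 2-fold, was computed only for the values as deposited. After quantile normalization RPI1 and RPE1 were at least 1.5-fold lower, against 11% of all genes. After scaling to a common sum it was RPI1 alone, against 5.41%.

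**Figure D1:**
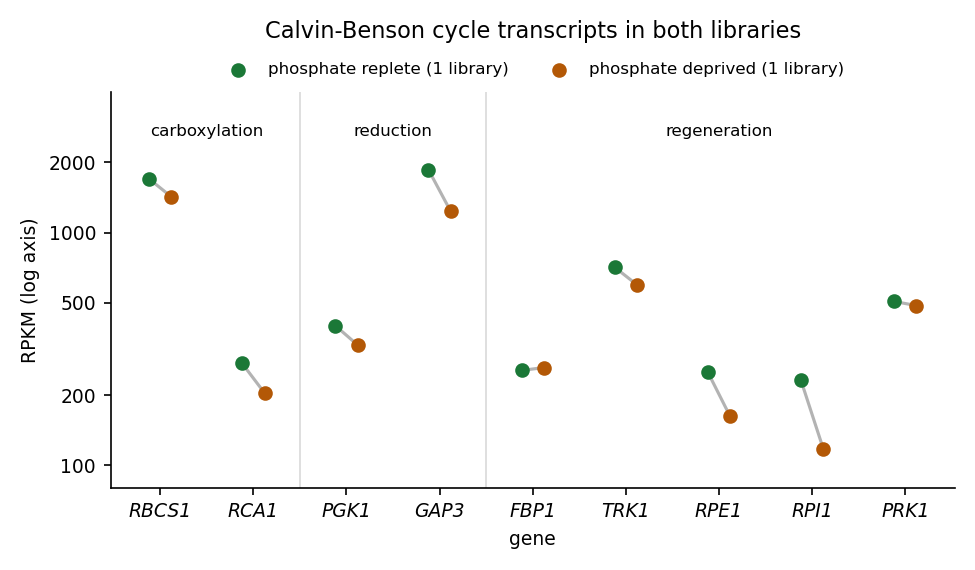
Level of each of the 9 genes in RPKM on a log axis, with the phosphate replete library in green and the deprived library in orange, ordered by role in the cycle; each point is 1 library and grey lines join the values of a gene. The steepest line is that of RPI1, from 232 to 118 RPKM, and FBP1 is the one gene whose line goes up.

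In the carboxylation step, RBCS1 codes for one form of the small subunit of Rubisco, the part of the enzyme encoded in the nucleus. RBCS1 (Cre02.g120100) had 1701 RPKM with phosphate and 1424 RPKM without it. The deprived value was 83.7% of the replete one, a log2 fold of -0.26 that turned to 0.054 after quantile normalization. The neighbouring RBCS2A (Cre02.g120150), a second small subunit gene outside the 9, had 11562 RPKM with phosphate and 10749 RPKM without it. Its log2 fold of -0.11 likewise turned above 0, to 0.16, after quantile normalization.

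RBCS2A thus supplied most of the small subunit signal in both libraries. It made up 87.2% of the RPKM of both genes with phosphate and 88.3% without, and stood at 6.796 times the RBCS1 level with phosphate and 7.55 times without. The 2 genes together held 1.47% of all RPKM with phosphate and 1.42% without it. The deposited annotation calls RBCS2A almost identical to a further copy on the same scaffold, and how reads of such copies were counted is not given in the sources used here, so the split between small subunit genes is uncertain to that extent.

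RCA1 codes for Rubisco activase, which uses ATP to free Rubisco of bound inhibitory sugar phosphates. RCA1 (Cre04.g229300) had 274 RPKM with phosphate and 205 RPKM without it, a log2 fold of -0.42. The activase transcript was lower relative to that of RBCS1 as well, at 0.161 times its level with phosphate and 0.144 times without.

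The reduction steps are represented by PGK1 and GAP3. PGK1 codes for the chloroplast phosphoglycerate kinase, which spends ATP on the product of Rubisco. PGK1 (Cre22.g763250) had 398 RPKM with phosphate and 329 RPKM without it (log2 fold -0.28). GAP3 codes for subunit A of the chloroplast glyceraldehyde phosphate dehydrogenase, the enzyme that spends NADPH. GAP3 (Cre01.g010900) had 1863 RPKM with phosphate and 1232 RPKM without it, 66.1% of the replete value (log2 fold -0.60). With phosphate it was the most abundant of the 9 transcripts, and without phosphate it stood second to RBCS1.

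Regeneration of the acceptor, with 5 of the 9 genes against 2 in each other step, holds both the lowest and the highest fold of the 9. A wider range goes with the larger number of genes. RPI1 codes for ribose phosphate isomerase, which turns ribose phosphate into ribulose phosphate. RPI1 (Cre03.g187450) had 232 RPKM with phosphate and 118 RPKM without it, 50.8% of the replete value. Only 1.85% of all genes past the filter, and 8.34% of those with a mean of at least 100 RPKM, had a lower fold than RPI1. Its rank by level among all loci went from 381 to 668.

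RPE1 codes for the epimerase that makes the same ribulose phosphate from xylulose phosphate. RPE1 (Cre12.g511900) had 251 RPKM with phosphate and 162 RPKM without it, 64.5% of the replete value (log2 fold -0.63). Both enzymes that form ribulose phosphate thus had transcripts at least 1.5-fold lower as deposited, and RPE1 went from rank 357 to rank 498. Among all genes past the filter, 5.79% had a lower fold than RPE1, and 16.2% of the abundant ones.

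PRK1, which codes for phosphoribulokinase, acts on that ribulose phosphate, and its transcript differed little. PRK1 (Cre12.g554800) had 506 RPKM with phosphate and 485 RPKM without it. Its log2 fold of -0.06 turned above 0 under common-sum scaling (0.016) and after quantile normalization (0.13), so it has no stable direction.

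TRK1 codes for transketolase, which passes carbon units between sugar phosphates in the middle of the regeneration phase. TRK1 (Cre02.g080200) had 710 RPKM with phosphate and 596 RPKM without it (log2 fold -0.25). FBP1 codes for the plastid fructose bisphosphatase, one of the thioredoxin-controlled steps. FBP1 (Cre12.g510650) had 256 RPKM with phosphate and 263 RPKM without it. Its log2 fold of 0.04, the highest of the 9, turned below 0 under same-median (-0.17) and trimmed mean scaling (-0.14).

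The order of the 9 transcripts by level was much the same in both libraries. In each, GAP3 and RBCS1 led, TRK1, PRK1 and PGK1 followed in that order, and RPE1 and RPI1 came last. GAP3 and RBCS1 exchanged places at the top, and RCA1 and FBP1 the sixth and seventh. The span widened, from 8.03 times between the highest and lowest member with phosphate to 12.1 times without, with RPI1 the lowest in both. With phosphate the lowest 4 (RCA1, FBP1, RPE1 and RPI1) lay between 232 and 274 RPKM; without phosphate the same 4 lay between 118 and 263 RPKM. No replicate spread is known against which neighbours in this order could be told apart. The 9 transcripts together held 0.687% of all RPKM with phosphate and 0.563% without it.

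**Figure D2:**
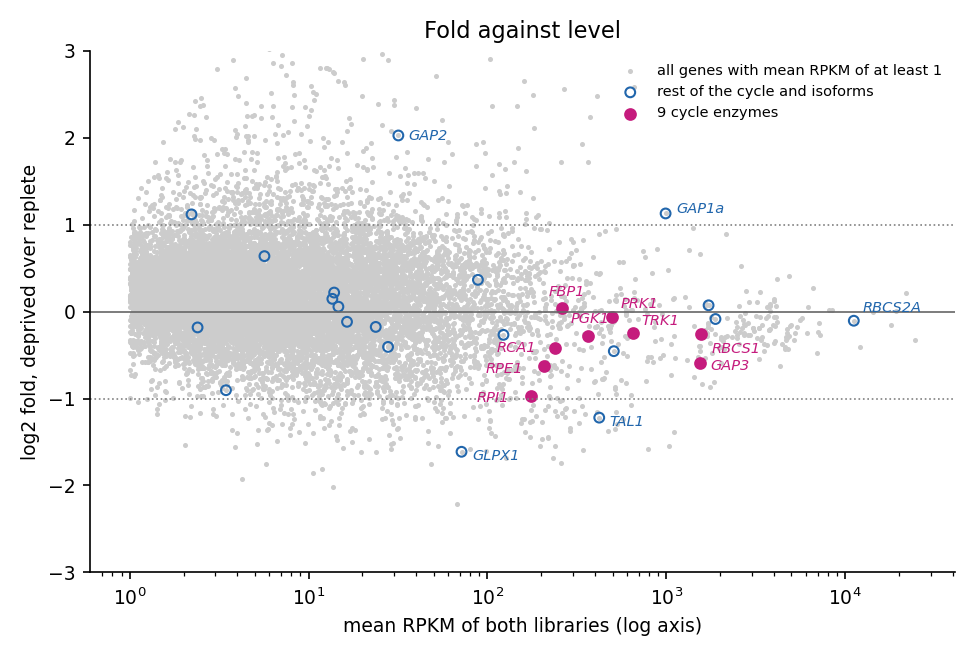
Log2 fold of the deprived over the replete library (vertical) against the mean RPKM of both on a log axis, with grey points for all 13855 genes past the filter, filled points for the 9 enzymes and open circles for 20 further cycle enzymes, isoforms and regulators; dotted lines mark 2-fold and 56 genes lie beyond the plotted range. The 9 enzymes lie between -0.97 and 0.04, within the dotted lines, while GLPX1 and TAL1 lie below them and GAP1a and GAP2 above.

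Of the other genes of the cycle, its regulators and isoforms of its enzymes, 20 loci were measured, with a median log2 fold of -0.10. Below 0 were 11 and above 0 were 9, against 38.0% of all genes past the filter and 55.9% of abundant ones below 0. At least 2-fold lower were 2 and at least 2-fold higher were 3, against 1.64% and 5.59% of all genes past the filter. Among the 767 genes with a mean of at least 100 RPKM, 57 were at least 2-fold lower and 46 at least 2-fold higher. Only 7 of the 20 loci had at least 100 RPKM in both libraries. SEBP1, the sedoheptulose bisphosphatase that commits carbon to regeneration, had 588 RPKM with phosphate and 429 RPKM without it (log2 fold -0.46). TPIC, the chloroplast triose phosphate isomerase, had 134 and 111 RPKM (-0.27).

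FBA3, an aldolase annotated as probably plastidic, had 1936 RPKM with phosphate and 1825 RPKM without it, and its log2 fold of -0.09 turned to 0.17 after quantile normalization. CP12 is the small linker protein that binds phosphoribulokinase and the chloroplast dehydrogenase into an inactive complex. It had 1678 RPKM with and 1764 RPKM without phosphate, and its log2 fold of 0.07 turned below 0 under same-median (-0.14) and trimmed mean scaling (-0.11). Its partners differed from each other: GAP3 stood at 1.11 times the CP12 level with phosphate and 0.698 times without, while CP12 stood at 3.32 and 3.63 times the PRK1 level.

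Some loci of this list lay outside the range of the 9. GLPX1, annotated as a fructose and sedoheptulose bisphosphatase, had 108 RPKM with phosphate and 34.8 RPKM without it, a log2 fold of -1.61 against 0.04 for FBP1. TAL1, a transaldolase annotated as possibly cytosolic, had 590 and 253 RPKM (-1.22). In the other direction, GAP1a, a glyceraldehyde phosphate dehydrogenase whose compartment the annotation leaves unclear, had 621 and 1359 RPKM (1.13; 0.92 and 0.95 under same-median and trimmed mean scaling). GAP2, a dehydrogenase annotated as probably cytosolic, had 11.9 and 51.6 RPKM (2.03).

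Of the second isoforms, PGK2, annotated as the probable cytosolic phosphoglycerate kinase, was weakly expressed, with 1.03 RPKM with phosphate and 3.40 RPKM without it (log2 fold 1.12). At such levels the fold rests on the pseudocount: it was 0.48 with 5 RPKM added and 1.73 with none, and it was below 2-fold after same-median scaling (0.96), trimmed mean scaling (0.98) and quantile normalization (0.92). RPE2, the probable cytosolic epimerase, had 14.4 and 14.98 RPKM, and its log2 fold of 0.06 was below 0 under same-median scaling (-0.14), trimmed mean scaling (-0.11) and quantile normalization (-0.11). RPI2, a possible isomerase, had 12.8 and 14.3 RPKM, and its log2 fold of 0.15 was likewise below 0 under these 3 scalings (-0.049, -0.024 and -0.0085). RPI1 stood at 18.1 times the RPI2 level with phosphate and 8.23 times without, and RPE1 at 17.5 and 10.8 times the RPE2 level.

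The remaining loci of this list include the aldolase genes FBA1 (77.1 and 99.7 RPKM, log2 fold 0.37), FBA2 (25.2 and 22.2 RPKM, -0.18) and FBA4 (2.61 and 2.18 RPKM, -0.18). RMT1 and RMT2, methyltransferases annotated as acting on the large and small subunit of Rubisco, had log2 folds of -0.41 (31.8 and 23.8 RPKM) and -0.12 (17.1 and 15.7 RPKM). RCA2, an activase-like gene, had 12.8 and 15.02 RPKM (0.22). SEBP2, a sugar bisphosphatase of probable cytosolic location, had 4.22 and 7.11 RPKM (0.64), and GAPN1, a nonphosphorylating dehydrogenase, had 4.80 and 2.10 RPKM (-0.90). The size of both folds rests on the pseudocount. With 5 RPKM added and with none, SEBP2 was at 0.39 and 0.76 and GAPN1 at -0.47 and -1.19.

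**Figure D3:**
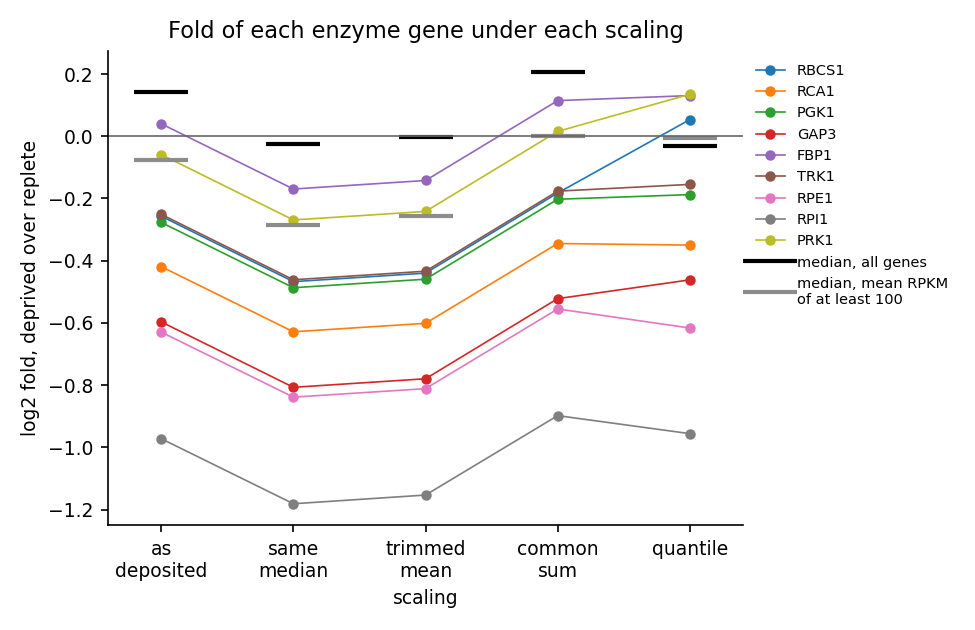
Log2 fold of each of the 9 enzyme genes (vertical) as deposited and under 4 scalings (horizontal), with 1 coloured line a gene, a black bar for the median of all genes past the filter and a grey bar for that of genes with a mean of at least 100 RPKM. RPI1 is lowest throughout, between -1.18 and -0.90, and RPI1, RPE1, GAP3, RCA1, PGK1 and TRK1 are below 0 in all 5 columns, while RBCS1, PRK1 and FBP1 are above 0 in at least 1.

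Scaling to a single factor shifted the members by like amounts, while quantile normalization raised RBCS1 from -0.26 to 0.054 and left RPI1 at -0.96. The same-median, trimmed mean and quantile scalings brought the median of all genes from 0.14 to -0.03, -0.0027 and -0.03, and the common sum to 0.21. The members' median log2 fold was -0.49, -0.46, -0.19 and -0.20 in that order of same median, trimmed mean, quantile and common sum, below the median of all genes in each case. The distance between them was -0.42 as deposited and -0.16 after quantile normalization; measured against the genes with a mean of at least 100 RPKM as deposited it was -0.20.

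Lists of neighbouring functions were described in the same way. Rubisco assembly, a list of chaperonins that fold Rubisco and other plastid proteins and of the rbcL maturation factor MRL1, had its median log2 fold at -0.88. Here 7 of 9 loci were at least 1.5-fold lower and 3 at least 2-fold lower, against 6.66% and 1.64% of all genes past the filter and 17.9% and 7.43% of those with a mean of at least 100 RPKM. Among them CPN20 had 153 RPKM with phosphate and 57.6 RPKM without it (-1.39), and CPN60A had 146 and 57.1 RPKM (-1.34). The list includes CPN60C, which is annotated as mitochondrial. MRL1, the 1 locus above 0, had 6.92 RPKM with phosphate and 7.08 RPKM without it (0.03). The low median is thus that of the chaperonin genes and does not describe MRL1.

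A list of redox control genes, made up of thioredoxins, PETF, FNR1 and CP12, had a median log2 fold of -0.32. Below 0 were 7 of 8 loci, against 38.0% of all genes and 55.9% of abundant ones. The locus above 0 was CP12, the linker of the inactive complex, which is counted in the rest of the cycle as well. At least 1.5-fold lower was 1 of 8, a share between the 6.66% of all and the 17.9% of abundant genes. That one was FNR1, the reductase that makes NADPH at photosystem I, with 671 and 363 RPKM (-0.89); it and the thioredoxin gene TRXm (668 and 479 RPKM, -0.48) differed most. Of the f-type thioredoxins, classical activators of fructose bisphosphatase, TRXf1 had 77.5 and 56.8 RPKM and TRXf2 had 77.1 and 69.4 RPKM (-0.44 and -0.15).

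Photorespiration, which recycles the product of Rubisco's reaction with oxygen, had a median of -0.11 over 15 loci. Below 0 were 9 of 15, near the 55.9% of abundant genes, and at least 1.5-fold lower was 1 of 15, near the 6.66% of all genes. That one was AGT1, an alanine-glyoxylate transaminase, at 153 RPKM with phosphate and 75.9 RPKM without it, 49.6% of the replete value. GCSH, a subunit of glycine decarboxylase, followed with 395 and 290 RPKM (-0.44).

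The oxidative pentose phosphate pathway, which shares sugar phosphates with the cycle and makes NADPH in the other direction, had a median of 0.35 over 5 loci, with 4 above 0 against 62.0% of all genes. That median was 0.14, 0.17 and 0.18 under same-median, trimmed mean and quantile scaling, 0.22 among genes with a mean of at least 100 RPKM and 0.087 with loci matched by symbol alone. GLD1, a glucose phosphate dehydrogenase annotated as cytosolic, had 11.1 RPKM with phosphate and 30.7 RPKM without it (1.39). GND1b, the following phosphogluconate dehydrogenase, had 85.4 and 159 RPKM (0.89). The exception was TAL1, which is counted in both lists.

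**Figure D4:**
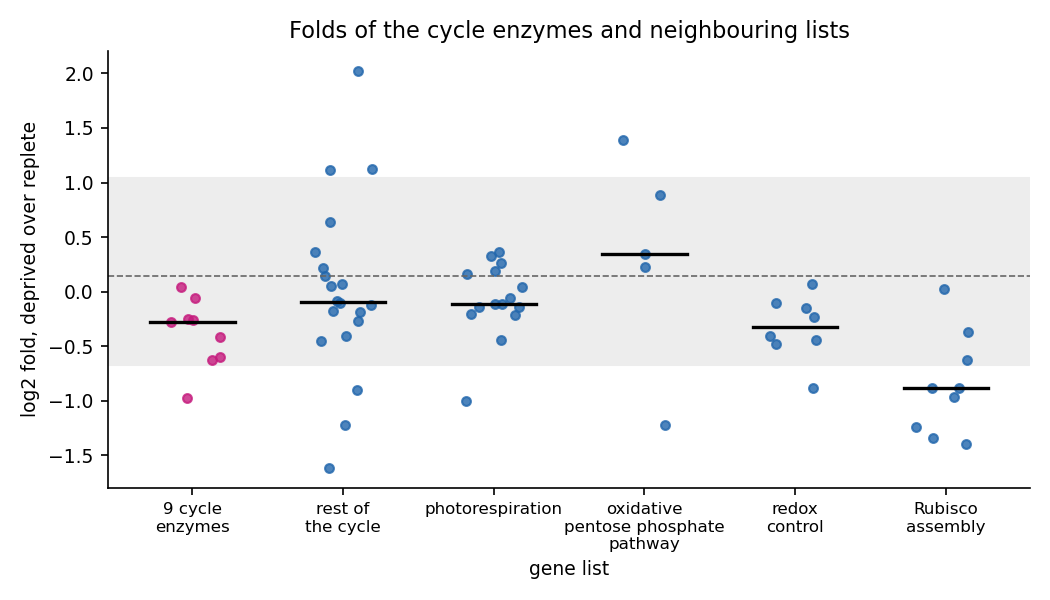
Log2 fold of every measured locus in the 9 cycle enzymes and 5 neighbouring lists, with 1 point a locus and a black bar at the median of the list; the grey band holds the central 90% of all genes past the filter and the dashed line is their median of 0.14. The bar of the 9 enzymes lies at -0.28, that of Rubisco assembly at -0.88 and that of the oxidative pentose phosphate pathway at 0.35.

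The libraries as a whole had RPKM sums of 901012 with and 855498 without phosphate. Genes known to respond to phosphate went with the labels: PHOX, a phosphate-repressible alkaline phosphatase gene, had 0.953 RPKM with phosphate and 124 RPKM without it, and PTB2, which codes for a sodium-coupled phosphate importer, had 148 and 2016 RPKM. Depth is not stated, but the values allow an estimate. A ratio of 0.870 between the libraries was shared by 1219 genes, whose values have the pattern of a fixed added count; that step is worth 0.161 RPKM with phosphate and 0.140 RPKM without it at a length of 1000 bases. At that length the lowest level among the 9 enzymes, that of RPI1 without phosphate, corresponds to about 842 steps, and that of PGK2 with phosphate to about 6.40. None of the 9 enzymes is at this ratio. Some genes at it pass the filter and count as below 0 among all genes, such as Cre01.g006400 (6.99 and 6.08 RPKM). How many of them pass was not counted. The reading as an added count is an inference from the values and covers counting only. The spread between cultures is unknown.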

How the data were processed

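RNA of 1 phosphate-replete and 1 phosphate-deprived culture was sequenced on Illumina libraries after phenol-chloroform extraction, per the labels' protocols. The authors deposited RPKM values per locus, and Bowtie is named without a version per the submitters' processing notes; for counting, genome build, annotation version and filters the sources used here give nothing, and no coordinates are printed. Gene symbols and functions are those of the deposited table. Columns were matched to libraries by the library code in the labels.

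Folds were computed as log2((deprived + 1)/(replete + 1)) in RPKM over genes with a mean of at least 1 RPKM, with Python 3.11.15, numpy 2.4.6 and pandas 2.3.3. With 1 library per condition nothing was tested; members are described beside all genes. The scale understates differences of weakly expressed genes. The shared ratio was read with a tolerance of 0.02 on whole quotients: of the 1082 genes at that ratio that allowed the check, 1082 had whole quotients, against 882 of 15191 others.

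The 10 symbols and the lists of neighbouring functions were chosen with earlier results of these data known. All members and all loci of the rest of the cycle are named, and from each other list the 2 loci with the largest absolute fold; GND1b, TRXf1 and TRXf2 were added after their values were seen. From the rest of the cycle, 4 loci were left out whose annotation names another or no function, among them SBP1, a sulfate binding protein here. The planned share of RBCS2 was computed for RBCS2A. Alternatives were pseudocounts of 0, 0.1 and 5 RPKM, 4 scalings, other filters, lists by symbol alone or with the loci left out, and RBCS2A counted as a member. The fold and scaling steps were tested on simulated data.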

Additional observations from a re-analysis of the deposited data

How the results depend on the processing

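The members' median log2 fold stayed below 0 under every pseudocount, scaling and filter tried. It moved from -0.28 to -0.49 after scaling to the same median and to -0.46 after trimmed mean scaling. The number of members at least 1.5-fold lower went from 3 to 1 after scaling to a common sum, and the share of all genes from 6.66% to 5.41%. The distance from the median of all genes went from -0.42 to -0.16 after quantile normalization and to -0.20 among genes with a mean of at least 100 RPKM, whose own median was -0.07. The causes of these moves were not tested. Counting RBCS2A as a member, an alternative chosen after seeing the data, left these values close to their own. Directions turned only for folds from -0.26 (RBCS1) to 0.15 (RPI2) as deposited, a range that comes close to the members' median of -0.28. The same-median and trimmed mean scalings turned FBP1 (-0.17 and -0.14), CP12 (-0.14 and -0.11), RPE2 (-0.14 and -0.11) and RPI2 (-0.049 and -0.024). Quantile normalization turned RBCS1 (0.054), PRK1 (0.13), RBCS2A (0.16), FBA3 (0.17), RPE2 (-0.11) and RPI2 (-0.0085). The common sum turned PRK1 (0.016). No list median turned, but their size moved: between -0.31 and -0.02 for the rest of the cycle, -0.32 and -0.04 for photorespiration, 0.087 and 0.42 for the oxidative pentose phosphate pathway, -0.53 and -0.25 for redox control, and -1.34 and -0.81 for Rubisco assembly. No paired analysis was possible because each condition has 1 library and the labels give no replicate numbers, and for the same reason no library could be left out. Depth limits the weakly expressed isoforms PGK2, FBA4 and GAPN1 most.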

Other observations

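Some pairs of genes annotated with the same reaction stood in a different ratio in each library. GAP1a stood at 0.333 times the GAP3 level with phosphate and at 1.10 times without, so the transcript of lower level with phosphate was the higher one without. FBP1 stood at 2.36 times the GLPX1 level with phosphate and at 7.56 times without. GAP2 and PGK2, both higher in the deprived library, code for enzymes of consecutive reactions. PGK2 was weakly expressed (1.03 and 3.40 RPKM), and its log2 fold ranged from 0.48 to 1.73 with the pseudocount. GAP2 and PGK2 follow each other with 0 loci between them in the RefSeq gene table of assembly Chlamydomonas_reinhardtii_v5.5, as RBCS1 and RBCS2A do. These ratios were computed after the values were seen, are between 1 library of each condition, and were not tested.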
